A study of Mus musculus with 4 samples.

Results

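The insulin-like growth factor (IGF) axis was examined as 10 mouse genes in C2C12 cells. They comprise the ligands Igf1 and Igf2, the receptors Igf1r and Igf2r, the binding proteins Igfbp2, Igfbp3, Igfbp4, Igfbp5 and Igfbp6, and the adaptor Irs1. Members were the rows whose gene symbol matched one of these names, and all 10 were found in every library, among 24850 named entries in the total RNA tables and 24992 in the polyA tables.

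C2C12 is an established line of mouse myoblasts, and its cells fuse to form myotubes in low-serum differentiation medium (DM). The myoblast (MB) library was labelled DM -24 hours and the myotube (MT) library DM 72 hours, and both were made from rRNA-depleted total RNA. The other libraries were polyA RNA from MT at DM 48 hours, after transient transfection of a control siRNA (si-NC) or of an siRNA against the RNA-binding protein hnRNPL (si-hnRNPL). Each of the 4 conditions had 1 library of the same cell line, so no replicate spread could be measured and no difference was tested. Values are FPKM, fragments per kilobase of transcript normalised to library size, with the deposited 95% interval, which reflects the counting and assignment of fragments in that library and nothing between cultures.

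IGF1 and IGF2 are secreted peptides that signal through the tyrosine kinase IGF1R and its adaptor IRS1 to the PI3K-AKT-mTOR pathway, a main driver of muscle growth and of myoblast survival and differentiation. IGF2R carries no kinase and takes IGF2 to the lysosome. The IGFBPs bind the ligands outside the cell and set how much of them reaches the receptor, and cultured muscle cells secrete several of them.

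A change is given as the log2 ratio of FPKM + 1, which understates the change of a gene with low values, and was counted as higher or lower at 0.58 or more in size, about the 1.5-fold limit that the study used. The number of fragments implied by each FPKM and the width of its interval, summed over a library, was 59960176 (MB), 54442423 (MT), 21341051 (si-NC) and 14592480 (si-hnRNPL). The members rested on at least 93 such fragments in MB (Igf1), 1024 in MT (Igfbp3), 117 in si-NC (Igfbp3) and 114 in si-hnRNPL (Igfbp3). The 5 myotube markers (Myog, Ckm, Acta1, Myh3, Tnnt3) summed to 13.6 FPKM in MB and 1212 FPKM in MT, and the 3 proliferation markers (Mki67, Top2a, Ccnb1) to 329 FPKM and 58.6 FPKM. The 3 myoblast markers summed to 149 FPKM in MB and 275 FPKM in MT. Of these, Myod1 was at 36.6 and 65.9 FPKM, Des at 98.7 and 195 FPKM, and Myf5 at 13.8 and 13.6 FPKM. Markers of hepatocytes, endothelial cells and adipocytes summed to at most 0.251 FPKM in any library, and those of macrophages to at most 1.13 FPKM. Of the fibroblast markers, Pdgfra lay between 2.14 FPKM (MB) and 4.91 FPKM (si-hnRNPL), and Dpt was listed at 0 in MB and at 3.62 FPKM in MT. In bulk RNA, more cells of a type and more RNA per cell cannot be told apart.

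The 250 bases before the annotated start are shown for 6 members: those other than Igf1 with a log2 change above 1 from MB to MT, and Igfbp2 and Igfbp6, which were lower in MT. Capitals mark E-boxes (CANNTG), the motif read by MyoD and other basic helix-loop-helix factors. The sequences are RefSeq's (GRCm38.p6), read 5′ to 3′ on the gene's strand, with positions found by exact match on mm9. Igf2, Igf2r and Igfbp5 lie on the minus strand, and Igfbp2, Igfbp4 and Igfbp6 on the plus strand.
Igf2, chr7:149843402-149843651: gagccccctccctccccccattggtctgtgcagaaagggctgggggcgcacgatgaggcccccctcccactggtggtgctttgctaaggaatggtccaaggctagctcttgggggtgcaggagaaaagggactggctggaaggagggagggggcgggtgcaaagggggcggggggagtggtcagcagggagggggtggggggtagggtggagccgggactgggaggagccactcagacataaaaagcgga
Igf2r, chr17:12962573-12962822: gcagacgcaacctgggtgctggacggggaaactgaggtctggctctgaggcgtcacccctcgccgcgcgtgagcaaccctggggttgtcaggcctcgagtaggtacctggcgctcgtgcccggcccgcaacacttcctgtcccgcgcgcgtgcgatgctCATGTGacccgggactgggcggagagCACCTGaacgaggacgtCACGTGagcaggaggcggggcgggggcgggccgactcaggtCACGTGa
Igfbp4, chr11:98902308-98902557: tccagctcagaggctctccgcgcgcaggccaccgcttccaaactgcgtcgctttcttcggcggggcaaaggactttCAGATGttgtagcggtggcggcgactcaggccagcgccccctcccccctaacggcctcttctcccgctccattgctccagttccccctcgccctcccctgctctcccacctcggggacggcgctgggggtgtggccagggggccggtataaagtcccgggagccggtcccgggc
Igfbp5, chr1:72921440-72921689: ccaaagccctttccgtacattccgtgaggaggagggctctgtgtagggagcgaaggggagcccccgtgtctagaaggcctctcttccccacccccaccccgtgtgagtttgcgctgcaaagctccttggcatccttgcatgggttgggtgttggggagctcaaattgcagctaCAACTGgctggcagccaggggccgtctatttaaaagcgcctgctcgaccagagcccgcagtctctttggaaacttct
Igfbp2, chr1:72870804-72871053: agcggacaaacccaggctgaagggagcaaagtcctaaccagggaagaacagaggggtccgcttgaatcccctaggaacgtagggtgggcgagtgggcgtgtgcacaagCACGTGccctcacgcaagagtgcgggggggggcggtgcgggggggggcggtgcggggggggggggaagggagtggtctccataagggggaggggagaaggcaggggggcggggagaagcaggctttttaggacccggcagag
Igfbp6, chr15:101974367-101974616: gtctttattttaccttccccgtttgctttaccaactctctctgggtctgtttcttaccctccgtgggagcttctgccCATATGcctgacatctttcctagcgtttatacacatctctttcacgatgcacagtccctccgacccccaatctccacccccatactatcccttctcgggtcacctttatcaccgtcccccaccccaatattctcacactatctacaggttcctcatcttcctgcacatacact

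All 10 members had a promoter entry in that table, with 14 windows among them because Igf2 and Igfbp2 have several starts. An E-box occurred in 10 of the 14 windows, against 66.2% of 32536 promoter windows of the same length. The Igf2r window held 4, a number reached by 3.83% of all windows. The Igf2 window shown held none, while the window of another Igf2 start (chr7:149852722-149852971, mm9), also free of annotated exons, held 2. Igfbp4 and Igfbp6 were the members with TATAAA, a motif found in 12.3% of all windows. For Igfbp4 it lay 28 bases before the start, and for Igfbp6 148 bases before it. CAGCTG, counted among the E-boxes, was found in 1 member window (Igf1, not shown because the window overlaps annotated exons throughout) against 13.1% of all windows. The MEF2 consensus was found in 0 windows, against 2.89% of all. A CArG box was found in 1 window, of another start of Igf2, against 1.48% of all. Both strands were searched, and a match describes letters only.

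The loci are given on mm9 as in the total RNA tables. The ligands lie at chr10:87321801-87399792 (Igf1) and chr7:149836673-149846940 (Igf2), and Igf1r at chr7:75097143-75378553. Igfbp2 (chr1:72871054-72899045, plus strand) and Igfbp5 (chr1:72904639-72921439, minus strand) are neighbours that end facing each other. Igfbp3 is at chr11:7106096-7113926, Igfbp4 at chr11:98902574-98913957, Igfbp6 at chr15:101974617-101979943 and Irs1 at chr1:82229680-82288014. FPKM is a value over all exons of such a locus, so it does not say which start or isoform was used.

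To see how the axis differed between proliferating cells and differentiated cells, MT was compared with MB. Of the 10 members, 7 were higher in MT, 2 were lower and Irs1 passed neither limit. Among all named entries 7.81% were higher and 13.7% lower, 21.5% in either direction. Among the 11486 entries with a mean FPKM of at least 1, a limit that all 10 members passed, the shares were 14.6% and 28.9%, 43.4% in either direction. The median change was 1.17 over the members and -0.21 over those 11486 entries. The 10791 entries at or above 1 FPKM in MB and in MT alike had a median of -0.23. Relative to that shift, 2495 of the 11486 entries were higher and 2170 lower, so that 53.5% of the calls were higher, against 33.5% as deposited, and the members split into 7 higher and 0 lower. The deposited intervals of MB and MT did not overlap for any of the 10. They were also apart for 49 of 65 other genes of the IGF pathway, 15 of which were under a mean FPKM of 1. The share over all named entries was not computed, so this count does not set the members apart.

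**Figure D1:**
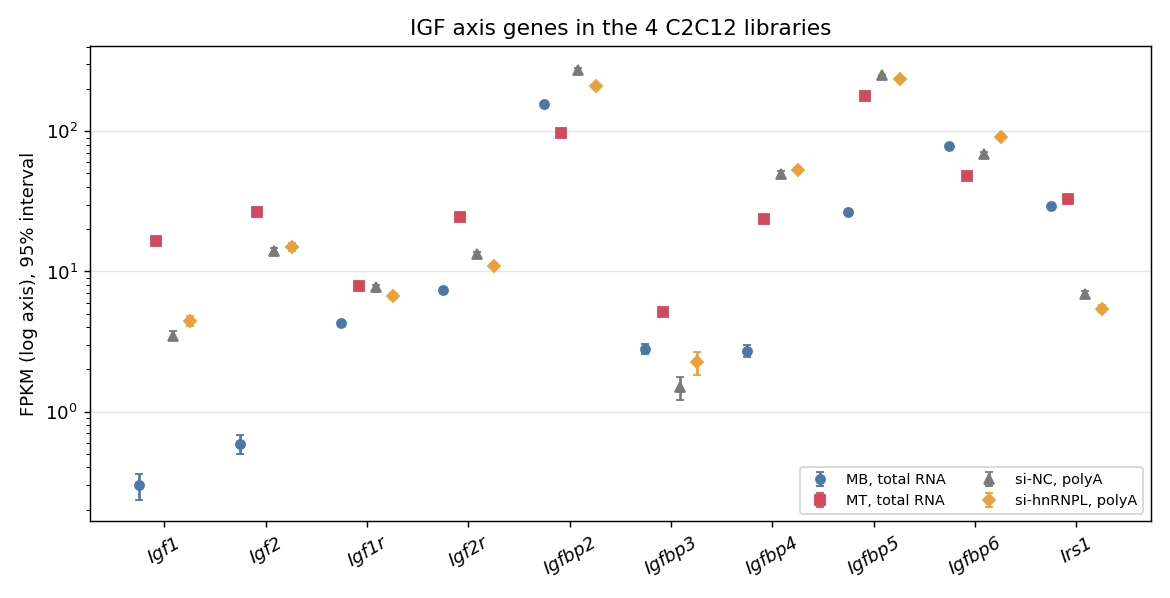
FPKM (log axis) of the 10 IGF axis genes, with a point for each of the 4 libraries and bars for the deposited 95% interval. Igf1 and Igf2 sit below 1 FPKM in MB alone, and Igfbp2 and Igfbp5 are at 209 FPKM or more in both polyA libraries.

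The ligands differed most. Igf1 was at 0.298 FPKM (0.236 to 0.360) in MB and 16.6 FPKM (16.1 to 17.1) in MT. This was a log2 change of 3.76 (3.68 to 3.84), or 55.7-fold in FPKM. Igf1 encodes the ligand that muscle makes for its own growth as well as receiving it from blood.

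Igf2, the ligand encoded at an imprinted locus and known for its induction in differentiating myoblasts, was at 0.588 FPKM (0.498 to 0.678) in MB and 26.5 FPKM (25.9 to 27.1) in MT. The log2 change was 4.12 (4.03 to 4.21), or 45.1-fold in FPKM. Igf2 thus had the larger change on the scale with 1 FPKM added and Igf1 the larger plain ratio, an order set by the low MB levels of both. The summed ligand FPKM was 0.886 in MB and 43.1 in MT, of which Igf2 made 66.4% and 61.5%.

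Both receptors were higher in MT, by unequal amounts. Igf1r, the signalling receptor, was at 4.29 FPKM (4.16 to 4.42) in MB and 7.90 FPKM (7.72 to 8.07) in MT, a log2 change of 0.75 (0.70 to 0.80). Igf2r, the clearance receptor, was at 7.40 FPKM (7.20 to 7.60) in MB and 24.4 FPKM (24.05 to 24.8) in MT, a log2 change of 1.60 (1.56 to 1.64). Igf2r FPKM was 1.72 times that of Igf1r in MB and 3.09 times in MT.

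Igf2r shares its locus with Airn, a noncoding RNA transcribed against it that silences the paternal Igf2r allele in many tissues. Airn (chr17:12934177-13052750, mm9) overlaps the Igf2r locus (chr17:12875272-12962572) by 28396 bases. Airn was at 0.268 FPKM (0.0862 to 0.450) in MB and 2.97 FPKM (2.41 to 3.53) in MT, on 9 and 113 implied fragments. Whether the counting used strand is not given in the sources used here, so reads of Igf2r and Airn cannot be told apart in the shared stretch. The total RNA tables also hold 36780 unnamed transcript units assembled by the authors, and 11 of them overlap Airn. Their MT levels ran from 0.177 to 1.51 FPKM and their MB levels from 0 to 0.225 FPKM. Of these 11 units 10 were higher in MT and 0 lower, against 19.8% higher and 3.09% lower of all units. The 11 units lie in a row inside the single Airn locus, so they are not separate observations. No assembled unit overlapped the locus of any member.

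The binding proteins moved in opposite directions. Igfbp5, the IGFBP most closely tied to muscle differentiation, was at 26.7 FPKM (26.3 to 27.2) in MB and 179 FPKM (178 to 181) in MT, a log2 change of 2.70 (2.67 to 2.73). Igfbp4, an IGFBP that withholds ligand until the protease PAPP-A cleaves it, was at 2.71 FPKM (2.45 to 2.97) in MB and 23.5 FPKM (22.7 to 24.2) in MT, a log2 change of 2.72 (2.62 to 2.84). In plain FPKM, Igfbp4 was 8.67-fold and Igfbp5 6.71-fold higher. Igfbp3, the main carrier of IGFs in serum, was at 2.80 FPKM (2.56 to 3.05) in MB and 5.17 FPKM (4.85 to 5.49) in MT, a log2 change of 0.70 (0.58 to 0.82).

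Igfbp2 and Igfbp6 were lower in MT. Igfbp2 was at 156 FPKM (153 to 158) in MB and 97.5 FPKM (95.6 to 99.5) in MT, 62.7% of its MB level, a log2 change of -0.67 (-0.71 to -0.63). Igfbp6, which binds IGF2 in preference to IGF1, was at 79.1 FPKM (77.3 to 81.0) in MB and 47.9 FPKM (46.5 to 49.3) in MT, 60.5% of its MB level, a log2 change of -0.71 (-0.77 to -0.66). Relative to the median of the 10791 expressed entries the changes were -0.44 and -0.49, short of the limit, and both genes lost the call under every other scaling tried.

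**Figure D2:**
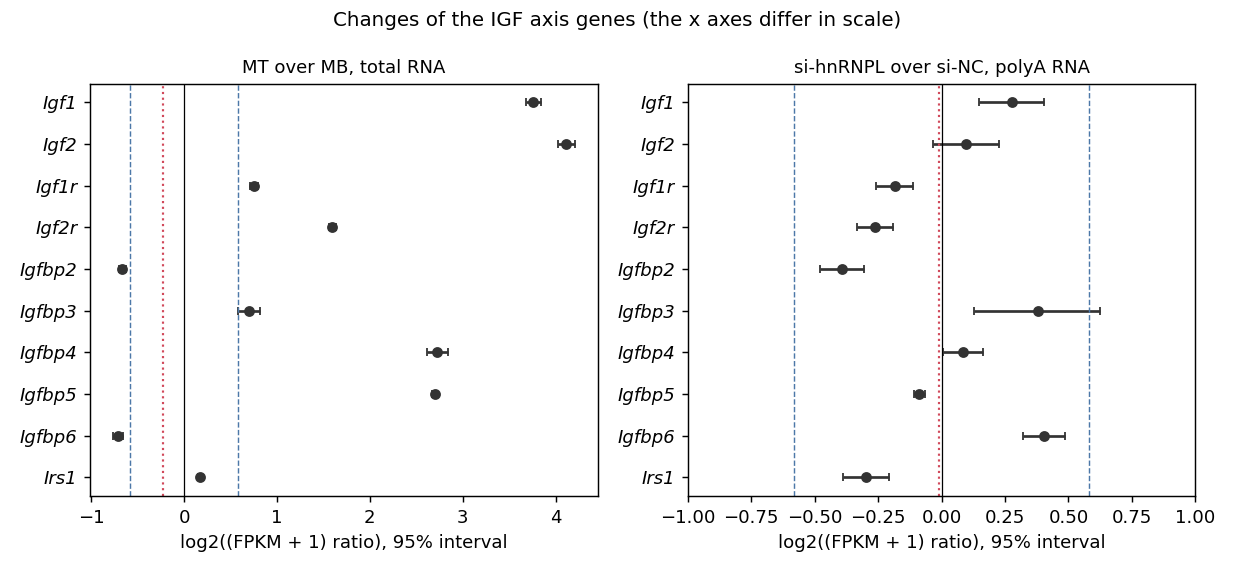
log2((FPKM + 1) ratio) of each member, MT over MB (left) and si-hnRNPL over si-NC (right), with 95% intervals from the deposited bounds and x axes of different range. Dashed lines mark 0.58 on either side and the dotted line marks the median of the entries at or above 1 FPKM on both sides of the comparison: 9 of the 10 points lie past the dashed lines on the left and 0 on the right.

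The make-up of the IGFBP mRNAs differed accordingly. Summed over Igfbp2 to Igfbp6, FPKM was 267 in MB and 353 in MT. In MB, Igfbp2 made 58.3% of the sum and Igfbp6 29.6%, with Igfbp5 at 10.0%, Igfbp3 at 1.05% and Igfbp4 at 1.01%. In MT, Igfbp5 made 50.7% and Igfbp2 27.6%, with Igfbp6 at 13.5%, Igfbp4 at 6.65% and Igfbp3 at 1.46%. These shares do not depend on the scaling between libraries. The summed IGFBP FPKM was 301 times the summed ligand FPKM in MB and 8.20 times in MT.

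**Figure D3:**
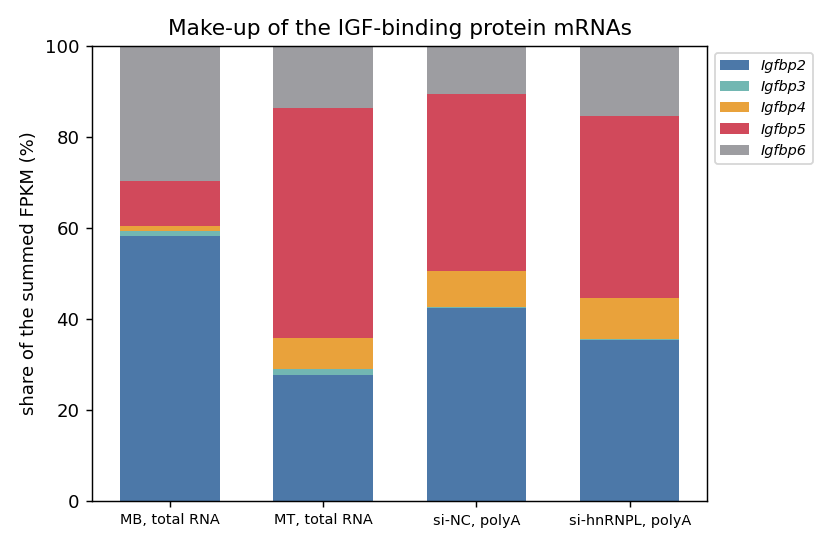
Share of the summed Igfbp2 to Igfbp6 FPKM (stacked bars, percent) in each of the 4 libraries. Igfbp2 is the widest band in MB (58.3%), and Igfbp5 is the widest in MT (50.7%).

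Irs1, the adaptor that docks PI3K on the activated receptor, was at 29.3 FPKM (28.9 to 29.7) in MB and 33.1 FPKM (32.7 to 33.5) in MT. The log2 change was 0.17 (0.14 to 0.20), under the limit, although it passed it at 0.70 when the libraries were scaled to a common sum. Its FPKM stood at place 3 of the 10 in MB and place 4 in MT.

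Ranked by FPKM in MB, the order was Igfbp2, Igfbp6, Irs1, Igfbp5, Igf2r, Igf1r, Igfbp3, Igfbp4, Igf2 and Igf1, and the intervals of neighbours overlapped for Igfbp3 and Igfbp4 alone. In MT the order was Igfbp5, Igfbp2, Igfbp6, Irs1, Igf2, Igf2r, Igfbp4, Igf1, Igf1r and Igfbp3, and neighbouring intervals overlapped for Igf2r and Igfbp4 alone. Among all named entries, Igf2 moved from the 53.1 percentile of FPKM in MB to the 89.6 percentile in MT, and Igf1 from 50.4 to 83.0. Igfbp5 moved from 86.8 to 99.1, while Igfbp2 stayed at 98.3 and 97.98.

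Around Igf2, the imprinted neighbour H19, a noncoding RNA, was at 165 FPKM (163 to 167) in MB and 662 FPKM (658 to 666) in MT. Igf2os, which runs antisense to Igf2, was at 0.00261 FPKM in MB and 0.125 FPKM in MT. Ins2, the adjacent insulin gene, was listed at 0 in MB and at 5.15 FPKM (4.06 to 6.24) in MT on 90 implied fragments. H19 passed the limit as Igf2 did, Igf2os was below 1 FPKM in both libraries, and no link between these genes was tested.

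Other genes of the IGF pathway, from secreted proteases and insulin receptors to mTOR, moved in both directions. Of 65 such genes, 13 were higher in MT, 11 were lower and 41 were neither, with a median change of 0.067, beside 7.81% higher and 13.7% lower of all named entries. Of the 50 with a mean FPKM of at least 1, 12 were higher and 10 lower, beside 14.6% and 28.9%. By role, PI3K and AKT genes had 4 higher and 3 lower of 10, inhibitors 3 and 3 of 12, and the mTOR branch 1 and 3 of 13. The other adaptors had 0 and 0 of 9, insulin and its receptors 2 and 0 of 4, FoxO and GSK3 genes 1 and 1 of 5, and Igf2 mRNA-binding proteins 1 and 0 of 3. Proteases of binding proteins with their inhibitors had 1 and 1 of 5, and the remaining binding and carrier proteins 0 and 0 of 4. Centred on the median of the 10791 expressed entries the split became 17 higher and 4 lower of 65. The centred shares were 21.7% higher and 18.9% lower among the 11486 entries with a mean FPKM of at least 1. Of the 65 genes, 15 were under that mean.

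Among the largest rises were Deptor, an inhibitor within the mTOR complexes (12.98 to 33.6 FPKM, log2 change 1.31), and Pik3r1, the regulatory subunit of PI3K (12.1 to 28.3 FPKM, 1.16). Socs2, a feedback inhibitor of growth hormone signalling, was at 17.6 FPKM in MB and 35.4 FPKM in MT (0.97). Foxo4, a transcription factor that AKT keeps out of the nucleus, was at 6.09 and 12.1 FPKM (0.88). Ins2, given above, completes the 5 with the largest rise among the genes with a mean FPKM of at least 1. Pappa2, a protease of binding proteins under that mean, was at 0.0215 FPKM in MB and 1.28 FPKM in MT (1.16).

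Lower in MT were Trib3, a pseudokinase that binds AKT (5.27 to 1.92 FPKM, log2 change -1.10), and Pik3cb, a catalytic subunit of PI3K (6.94 to 2.74 FPKM, -1.08). Stc2, an inhibitor of PAPP-A, was at 3.61 FPKM in MB and 1.45 FPKM in MT (-0.91). Socs1, a cytokine feedback inhibitor, was at 4.97 and 2.41 FPKM (-0.81). The kinase Akt1 was at 132 FPKM in MB and 76.8 FPKM in MT (-0.78).

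**Figure D4:**
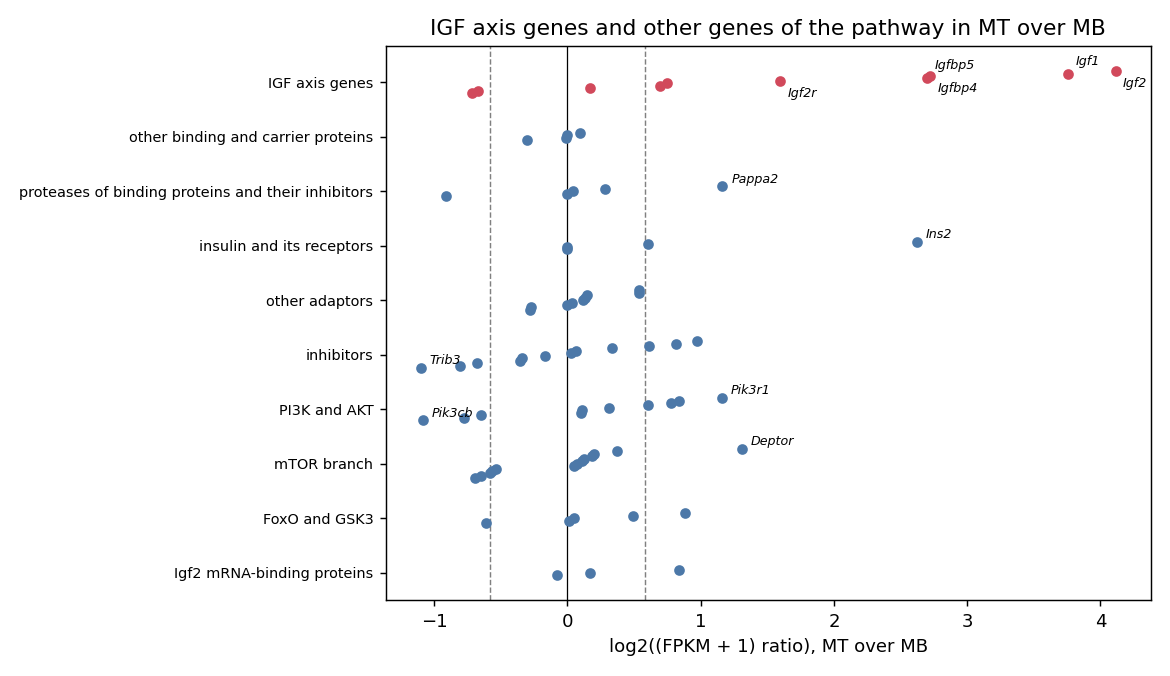
log2((FPKM + 1) ratio), MT over MB, for the members (top) and for 65 other genes of the pathway grouped by role, with a point for each gene and dashed lines at 0.58 on either side. Of these 65 genes 13 lie to the right of the lines and 11 to the left. At a limit of 1, 4 of the 65 were higher and 2 lower, and 5 of the 10 members were higher and 0 lower. Members and lists were chosen with earlier results of these data known, so the contrast between them is a description only.

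To ask whether hnRNPL depletion moved the axis, si-hnRNPL was compared with si-NC. Hnrnpl itself was at 95.1 FPKM (92.7 to 97.5) in si-NC and 85.9 FPKM (83.1 to 88.7) in the library labelled si-hnRNPL. That is 90.4% of the control level, a log2 change of -0.14 (-0.20 to -0.09). The mRNA of the target was thus only slightly lower, and every direction below is between libraries as labelled. Protein was not measured in these libraries, and the study examined the knockdown separately by Western blot. The siRNA used, in the orientation of the Hnrnpl mRNA and with capitals for the 7 bases that pair with bases 2 to 8 of the guide, is shown because a match of those bases elsewhere could lower another mRNA.
si-hnRNPL siRNA: gcgugcuucugUUUACCAu
The 19-base sequence matched 0 member transcripts in full. Its capitals were found in the longest transcript of 0 of the 10 members, against 16.8% of 22611 genes.

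With 1 FPKM added, no member passed the limit in either direction. Of all named entries 0.688% were higher and 0.416% lower, 1.1% in either direction. Among the 11234 entries with a mean FPKM of at least 1 the shares were 1.36% and 0.863%, 2.23% in either direction, so few genes of any kind passed. Of the members, 5 lay above zero and 5 below, with a median near 0. The interval of the change excluded 0 for 9 of 10, all but Igf2, which speaks to counting error within these libraries and not to the siRNA. It also excluded 0 for 27 of 65 other genes of the IGF pathway, 16 of which were under a mean FPKM of 1. The share over all named entries was not computed, so this count does not set the members apart.

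Both ligands lay above zero. Igf1 was at 3.49 FPKM (3.22 to 3.75) in si-NC and 4.43 FPKM (4.06 to 4.81) in si-hnRNPL, a log2 change of 0.28 (0.15 to 0.41). Igf2 was at 13.9 FPKM (13.04 to 14.8) and 14.97 FPKM (13.9 to 16.0), a log2 change of 0.10 (-0.03 to 0.23), and its intervals overlapped.

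Both receptors and the adaptor lay below zero. Igf1r was at 7.76 FPKM (7.49 to 8.03) in si-NC and 6.71 FPKM (6.395 to 7.02) in si-hnRNPL, a log2 change of -0.18 (-0.26 to -0.11). Igf2r was at 13.4 FPKM (12.98 to 13.8) and 11.01 FPKM (10.5 to 11.5), a log2 change of -0.26 (-0.33 to -0.19). Irs1 was at 6.91 FPKM (6.62 to 7.20) and 5.44 FPKM (5.11 to 5.76), a log2 change of -0.30 (-0.39 to -0.21). Airn, on 41 and 12 implied fragments, was at 6.24 FPKM (4.30 to 8.18) and 2.88 FPKM (1.23 to 4.53), with overlapping intervals.

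The widest differences in either direction were among the binding proteins. Igfbp2 was at 274 FPKM (264 to 285) in si-NC and 209 FPKM (199 to 218) in si-hnRNPL, 76.1% of the control level, a log2 change of -0.39 (-0.48 to -0.31). Igfbp6 was at 68.8 FPKM (66.1 to 71.6) and 91.5 FPKM (87.5 to 95.4), 1.33-fold, a log2 change of 0.40 (0.32 to 0.49). These sat at the 3.15 and 96.5 percentiles of change among the entries with a mean FPKM of at least 1.

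Igfbp3 was at 1.495 FPKM (1.22 to 1.77) in si-NC and 2.25 FPKM (1.83 to 2.67) in si-hnRNPL, a log2 change of 0.38 (0.13 to 0.62), the widest interval of the 10. In plain FPKM Igfbp3 was 1.503-fold, just past 1.5-fold, though not with 1 FPKM added. Igfbp4 was at 49.96 FPKM (48.2 to 51.7) and 53.1 FPKM (50.8 to 55.3), a log2 change of 0.09 (0.01 to 0.16), with overlapping intervals. Igfbp5 was at 251 FPKM (248.9 to 253) and 236 FPKM (234 to 239), a log2 change of -0.09 (-0.11 to -0.07). Igfbp2 was the leading IGFBP mRNA in si-NC, with 42.5% of the sum against 38.9% for Igfbp5. In si-hnRNPL Igfbp5 led, with 39.9% against 35.3%.

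These changes moved with transcript length. Over 9906 genes, which do not stand for replicates, the log2 change had a Spearman correlation of -0.45 with the length of the longest transcript and 0.42 with its GC content. Short Igfbp6 (1112 bases) lay high and long Irs1 (9144 bases) and Igf2r (8887 bases) lay low, as did other genes of like length. Igfbp2 (1307 bases) was short and lay low. With length and GC taken out, an adjustment chosen after seeing the data, Igfbp6 went from 0.40 to 0.16, Igf2r from -0.26 to -0.15 and Irs1 from -0.30 to -0.18. Igf1 went from 0.28 to 0.47 and Igfbp2 from -0.39 to -0.60, past the limit.

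**Figure D5:**
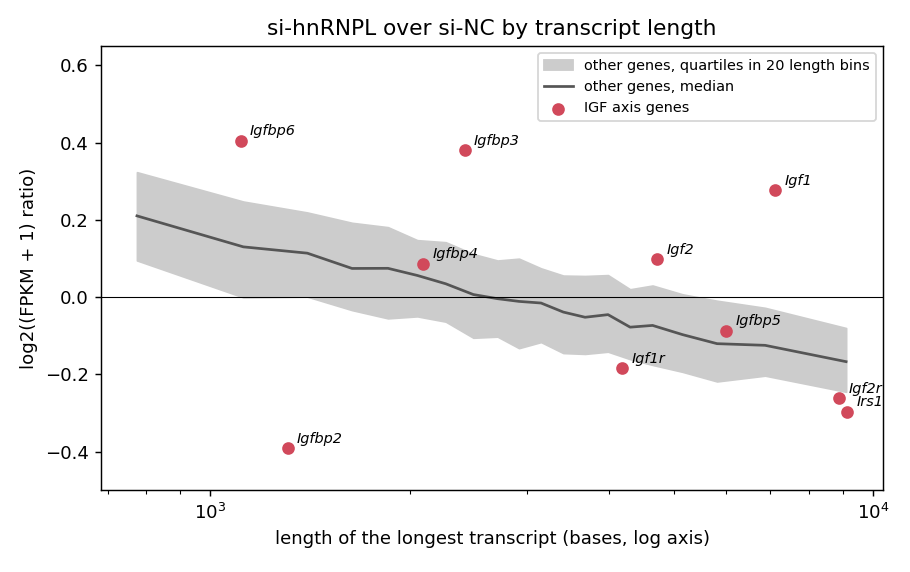
log2((FPKM + 1) ratio), si-hnRNPL over si-NC, against the length of the longest transcript (log axis) for the members (points) and other genes (line for the median, band for the quartiles, in 20 length bins). The line falls from short to long transcripts, and Igfbp2 lies well below it while Igf1 lies above it.

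The myotube markers also differed between these libraries, with a sum of 1784 FPKM in si-NC and 2598 FPKM in si-hnRNPL. Myog was at 175 and 249.4 FPKM, and the proliferation markers summed to 128 and 89.5 FPKM. The myoblast markers summed to 494 and 550 FPKM. Igf1, Igf2, Igfbp3 and Igfbp4, higher in MT than in MB, lay above zero here, while Igf1r, Igf2r and Igfbp5, also higher in MT, lay below it. The sign of Igfbp4 turned under both common-sum scalings and with length and GC taken out, and that of Igfbp5 with the latter. The part of differentiation stage in these values was not tested.

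In the pathway, 0 of 65 genes were higher and 0 lower, with a median of 0.0033. The furthest on either side, named after their values were seen and with no FPKM filter, were Socs1 at 0.54 and Pappa, the protease of IGFBP4, at -0.49. Socs1 was at 2.20 FPKM in si-NC and 3.66 FPKM in si-hnRNPL, 1.67-fold. Pappa was at 0.746 and 0.246 FPKM, 33.0% of the control level. Both thus passed 1.5-fold in plain FPKM, though not with 1 FPKM added.

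hnRNPL is known to bind CA-rich RNA, so the members were searched for CACACA, with overlapping matches counted on the transcript strand of the longest transcript. It occurred in 7 of 10 members, against 54.6% of 22611 genes. The Igf2 transcript held 18 matches, or 3.81 per kb, above 97.8% of genes. Of these, 13 lie in a 30-base stretch of a CA repeat in its 3′ UTR (chr7:149838848-149838877, mm9, minus strand), shown in capitals. The window was fixed at 30 bases, so the repeat may run on beyond it.
Igf2 3′ UTR: CACACACACACACACACACACACACACACA
Igfbp2, Igfbp4 and Igfbp6 held 0 matches. The count of members with a match is not adjusted for transcript length. Per kb, the others held 0.562 (Igf1), 0.239 (Igf1r), 0.788 (Igf2r), 1.65 (Igfbp3), 0.333 (Igfbp5) and 0.109 (Irs1), beside a median of 0.248 over all genes. No relation between these matches and the changes was tested.

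Levels in total RNA at DM 72 hours and polyA RNA at DM 48 hours differ by RNA selection, time and transfection, so they are set side by side without a fold. Irs1 was at 33.1 FPKM in MT and 6.91 FPKM in si-NC, whereas Igfbp4 was at 23.5 and 49.96 FPKM and Igfbp2 at 97.5 and 274 FPKM. The Igf1 and Igf2 loci also have different bounds in the total RNA and polyA tables. Igf1 starts at chromosome 10 position 87321801 in the first and 87321010 in the second, and Igf2 reaches chromosome 7 position 149846940 and 149852721. In si-NC the order was Igfbp2, Igfbp5, Igfbp6, Igfbp4, Igf2, Igf2r, Igf1r, Irs1, Igf1 and Igfbp3, with overlapping neighbours for Igf2 and Igf2r alone. In si-hnRNPL Igfbp5 and Igfbp2 changed places, the others kept theirs, and no neighbours overlapped.

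The genes whose pattern over the 4 libraries was most like that of a ligand were found among 11419 named genes by the Euclidean distance of log2(FPKM + 1), each gene minus its own mean. For Igf1 they were Ankrd23 (distance 0.225), Cav3 (0.260), the muscle caveolin, and Dll1 (0.351), a Notch ligand. For Igf2 they were Myom1 (0.238), a myosin-binding protein of the M-band, Smpx (0.297) and Unc45b (0.304), the muscle myosin chaperone. With 4 points, each a single library, such likeness is a description of these libraries only.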

How the data were processed

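RNA-seq of 4 C2C12 libraries was used: MB and MT total RNA, and si-NC and si-hnRNPL polyA RNA. The authors trimmed reads, mapped them to mm9 with TopHat2 and estimated FPKM with its 95% interval in Cufflinks, both named in the submitters' processing notes. The deposited FPKM values and bounds were used as given. Whether counting used strand, and the gene annotation, are not given in the sources used here. The members and gene lists were chosen with earlier results of these data known.

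Changes are log2 ratios of FPKM + 1, with intervals from the deposited bounds combined in quadrature. With 1 library per group no test was run. The fold, interval, call and implied-fragment steps were checked on a simulated pair of libraries with Poisson counts. The intervals there were built on that same basis, and the other steps were not simulated. Genes named beyond the members are Hnrnpl, marker and locus neighbours, the 5 pathway genes with the largest rise and fall past 0.58 with a mean FPKM of at least 1, and the 3 genes nearest in pattern to each ligand. Socs1 and Pappa in the siRNA comparison, and Pappa2 in MT over MB, were named after their values were seen. Implied fragments are the counts at which the deposited interval would be a Poisson one (2 SD), and are not read counts. Alternatives covered the pseudocount, the limit, the FPKM filter and 3 scalings. A scaling without microRNA genes and a length and GC adjustment in 20 bins were added after seeing the data. Python 3.11.15, numpy 2.4.6, pandas 2.3.3 and matplotlib 3.10.9 were used.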

Additional observations from a re-analysis of the deposited data

How the results depend on the processing

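In MT over MB the number of members higher in MT, 7, became 5 with a limit of 1 and 8 with a common sum (Irs1 at 0.70), and was 7 under the other alternatives. The 2 lower members (Igfbp2 and Igfbp6) became 0 with a limit of 1, with centring, with scaling to the 75th percentile or to a common sum, with or without microRNA genes, and with length and GC taken out. Of the other pathway genes, the 13 higher became 4 with a limit of 1, 28 with a common sum and 20 without microRNA genes. The 11 lower became 2, 4 (centring), 5 (75th percentile), 2 (common sum), 4 (without microRNA genes) and 6 (length and GC, 50 genes). The cause was not tested, other than that each scaling moves genes the same way. The shift in log2 was at most 0.28 for the 75th percentile, 0.54 for the common sum and 0.34 for the sum without microRNA genes. Because 1 FPKM is added after scaling, it was smaller for genes with low FPKM.

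In si-hnRNPL over si-NC, 1 member became higher with a pseudocount of 0.01 (Igfbp3) and 1 lower with length and GC taken out (Igfbp2). Among pathway genes 2 were higher and 1 lower at a pseudocount of 0.1, and 4 and 1 at 0.01. The cause was not tested. Of 90 member values under alternatives, 89 kept their sign in MT over MB, the exception being Irs1 at -0.05 with length and GC taken out. In si-hnRNPL over si-NC 86 of 90 did, the exceptions being Igfbp4 under both common sums and Igfbp4 and Igfbp5 with length and GC taken out.

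No paired analysis was possible because each group has 1 library and no result comes from a test. Culture, library and sequencing differences between single libraries cannot be told apart from condition. Depth limits Igf1 in MB and Igfbp3 in the polyA libraries most, as their intervals show.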
